A study of Homo sapiens with 6 samples.

Results

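The MYC, MAX and MXD network was examined through 10 genes of the deposited count table, MYC, MYCL, MYCN, MAX, MXD1, MXD3, MXD4, MXI1, MNT and MLX, out of 58735 genes in all. The genes were found by name. They were chosen by a measured value of the same contrast, since MYC was already known to be higher in IL17D-overexpressing than in control A549 cells. The differences of these 10 genes between the groups are therefore a description and carry no test.

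RNA from A549, a human lung adenocarcinoma cell line, was sequenced to examine what overexpression of IL17D, a cytokine of the IL-17 family, changes in lung cancer cells. The control group held 3 libraries of cells with an empty lentiviral vector, and the IL17D group held 3 libraries of cells with the vector that carried the IL17D open reading frame. The vector expresses its insert from the human PGK promoter and carries an IRES and GFP, and the insert, which carried a FLAG tag, was amplified from cDNA of H82, a small cell lung cancer line. Both groups grew in RPMI1640 medium with 10% FBS. Neither the labels nor the methods state whether cells were sorted or cloned, when after transduction the RNA was taken, or whether replicates were separate cultures, so p-values measure only the spread between these libraries, which may be technical.

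MYC, MYCL and MYCN are basic helix-loop-helix leucine zipper transcription factors that bind DNA as heterodimers with MAX. The dimers bind E-box sequences such as CACGTG and mostly raise the transcription of genes for growth, metabolism and ribosome production. MXD1, MXD3, MXD4, MXI1 and MNT pair with the same MAX, bind the same sequences and recruit SIN3 corepressors with histone deacetylases, and so oppose MYC. MLX is a MAX-like protein whose partners MLXIP and MLXIPL link the network to glucose metabolism. In lung cancer, MYC family genes are known for amplification, MYCL and MYCN mainly in small cell tumors.

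The libraries held between 14319398 and 16521021 counts. IL17D was counted 24, 18 and 34 times in the control libraries and 31274, 32155 and 26772 times in the IL17D libraries, as the labels of the libraries state. On the CPM scale, counts per 1000000 of a library size scaled by the trimmed mean of M values, IL17D rose from 1.61 ± 0.450 to 1911 ± 40.6 (SD, n = 3 each), a log2 fold change of 10.19 (adjusted p = 2.47e-47, edgeR quasi-likelihood test, Benjamini-Hochberg adjusted). Counts do not separate the inserted from the endogenous IL17D. The epithelial keratin genes KRT8, KRT18 and KRT7 held most of the summed level of 6 epithelial markers, 12740 to 13240 CPM in the control and 12370 to 12620 CPM in the IL17D libraries, while EPCAM had only 9 to 21 counts and KRT19 3 to 11 counts per library. CDH1, the epithelial adhesion protein E-cadherin, was lower in the IL17D group, with 40.9, 43.1 and 46.2 CPM in the control libraries and 32.4, 35.6 and 39.0 CPM in the IL17D libraries, which did not overlap (adjusted p = 0.031, edgeR quasi-likelihood test, Benjamini-Hochberg adjusted). The leukocyte genes PTPRC and CD3E, and CDKN2A and CDKN2B, which are known to be deleted in A549, had 0 counts in all 6 libraries. The summed level of 4 fibroblast markers, nearly all COL1A1, was 22.6 to 25.1 CPM in the control and 19.4 to 23.9 CPM in the IL17D libraries, and those of 4 leukocyte and 3 endothelial markers were at most 1.52 and 0.608 CPM. The part of these markers in the differences below was not tested.

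Among the 3 MYC genes, MYC carried nearly all of the signal and was higher in the IL17D libraries. The gene lies on chromosome 8 (127735434 to 127741434, plus strand, GRCh38, ENSG00000136997), and the other members lie on chromosomes 1 (MYCL), 2 (MYCN and MXD1), 4 (MXD4), 5 (MXD3), 10 (MXI1), 14 (MAX) and 17 (MNT and MLX). Its levels were 192, 191 and 187 CPM in control replicates 1, 2 and 3, and 227, 225 and 222 CPM in IL17D replicates 1, 2 and 3. All IL17D libraries lay above all control libraries, and the gap between the groups was wider than the whole range within either. The means were 190.0 ± 2.75 and 224.9 ± 2.58 CPM (SD, n = 3 each), a log2 fold change of 0.24 with an SE of 0.04 and a 95% interval from 0.17 to 0.32, or a fold of 1.18. The SD between libraries was below the 3.50 and 3.79 CPM that counting error alone would give at these depths. In bulk RNA, a change in all cells and a change in some of the cells cannot be told apart.

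No exon base of MYC is shared with another annotated gene, and none of its stretches of 31 bases occurs in transcripts of another gene, so its counts have no near-identical source in this annotation. PVT1, the long noncoding RNA gene beside MYC on the same strand, had 26.3, 28.5 and 26.7 CPM in the control libraries and 30.6, 30.0 and 26.8 CPM in the IL17D libraries. These groups overlap, and PVT1 did not pass the test (log2 fold change 0.10, SE 0.08, adjusted p = 0.69, edgeR quasi-likelihood test, Benjamini-Hochberg adjusted). After its values were seen, the neighborhood was also summarized. Of the 60 other tested genes that start within 10 megabases of MYC, 38 had a higher and 22 a lower estimate, with a median log2 fold change of 0.05. NDRG1 and FAM83A were the 2 of them called, both higher, where 1.58% of all tested genes were called and 0.673% called higher. Within 5 megabases 1 of 39 genes was called, and within 25 megabases the same 2 of 191. The part of the neighborhood in MYC's own difference was not tested.

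MYCL, the family member first known from small cell lung cancer, was at a low level in both groups. It had 3.14, 1.94 and 2.86 CPM in the control libraries and 2.98, 2.25 and 4.35 CPM in the IL17D libraries, from 28 to 62 counts each. IL17D replicate 3 was the highest and control replicate 2 the lowest, and the groups overlap. The estimate, 0.25 on the log2 scale, was as large as that of MYC but had a 95% interval from -0.27 to 0.77, so a difference of that size was not detectable at this depth. MYCN, best known from neuroblastoma, had 1 count in IL17D replicate 1 and 0 in the other 5 libraries and was not tested. A count of 0 allows up to 3 counts, or 0.182 to 0.210 CPM in these libraries, for counting error only. Per kilobase of gene length, MYC made up 99.2% ± 0.193 of the summed level of the 3 genes in the control libraries and 99.15% ± 0.282 in the IL17D libraries (SD, n = 3 each).

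MAX, the obligate partner of MYC and of its antagonists, did not differ beyond the spread of the libraries. It had 33.1, 30.4 and 31.7 CPM in the control libraries and 29.1, 31.8 and 29.7 CPM in the IL17D libraries. The groups overlap, with control replicate 1 the highest and IL17D replicate 1 the lowest. The log2 fold change was -0.07 (SE 0.07, 95% interval -0.22 to 0.08), which leaves out a rise of the size seen for MYC.

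The 4 MXD repressors, most of which accumulate as cells stop dividing and differentiate, had overlapping groups, and each 95% interval included 0. MXD4 had 48.0, 47.6 and 47.5 CPM in the control libraries and 45.2, 48.5 and 44.5 CPM in the IL17D libraries. The control libraries had an SD of 0.270 CPM, below the 1.75 CPM that counting error alone gives. IL17D replicate 2 lay above the control libraries while the other 2 IL17D libraries lay below. Its log2 fold change was -0.05 (95% interval -0.17 to 0.08).

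MXD3, the MXD gene linked to cells in S phase, had 26.8, 27.4 and 24.8 CPM in the control libraries and 27.7, 24.1 and 26.2 CPM in the IL17D libraries, a log2 fold change of -0.02 (95% interval -0.19 to 0.15). The highest and the lowest library both belonged to the IL17D group. The value of MXD3 is uncertain, since 40.4% of its exon bases lie in exons of other genes, 22.5% in PRELID1 on the opposite strand and 18.0% in RAB24 on the same strand. The strand setting of the counting was not given in the sources used here. PRELID1 and RAB24 had log2 fold changes of 0.01 and 0.04.

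MXI1 had 15.3, 14.6 and 15.9 CPM in the control libraries and 12.6, 15.0 and 14.7 CPM in the IL17D libraries. IL17D replicate 1 was the lowest, and the other 2 IL17D libraries fell among the control ones. Its log2 fold change of -0.12 (95% interval -0.33 to 0.10) was the lowest of the 9 genes tested. MXD1, the first MXD protein described, had 4.49, 4.91 and 4.66 CPM in the control libraries and 4.07, 5.60 and 5.12 CPM in the IL17D libraries, with the lowest and the highest both in the IL17D group. With 67 to 92 counts per library, its log2 fold change of 0.07 had a 95% interval from -0.29 to 0.44.

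MNT, the widely expressed MAX partner that represses MYC targets in growing cells, had the same mean in both groups but unequal spread. It had 36.3, 43.5 and 34.1 CPM in the control libraries and 38.5, 36.4 and 39.4 CPM in the IL17D libraries. Control replicate 2 stood above all others, and the SD of the control group, 4.90 CPM, was 3.14 times the counting error, against 0.997 times in the IL17D group. The log2 fold change was 0.0077 (95% interval -0.15 to 0.16), and without control replicate 2 it was 0.11.

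MLX, the center of the glucose-sensing arm, had 61.7, 64.1 and 57.6 CPM in the control libraries and 65.6, 67.3 and 64.9 CPM in the IL17D libraries. The groups did not overlap, but by a gap of less than 1 CPM between control replicate 2 and IL17D replicate 3. The log2 fold change was 0.11 (SE 0.06), with a 95% interval from -0.0019 to 0.22. PSMC3IP on the opposite strand covers 18.1% of the exon bases of MLX and had a log2 fold change of 0.10 (SE 0.10), from 16.3 to 17.6 CPM. MNT shares 12.2% of its exon bases with an antisense gene that had 0 counts, and the members other than MXD3, MLX and MNT shared 4.46% or less. Stretches of 31 bases found in transcripts of other genes, on either strand, made up 16.5% for MNT, 21.4% for MLX and 37.8% for MXD3. For the other members such stretches made up 4.05% or less.

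**Figure D1:**
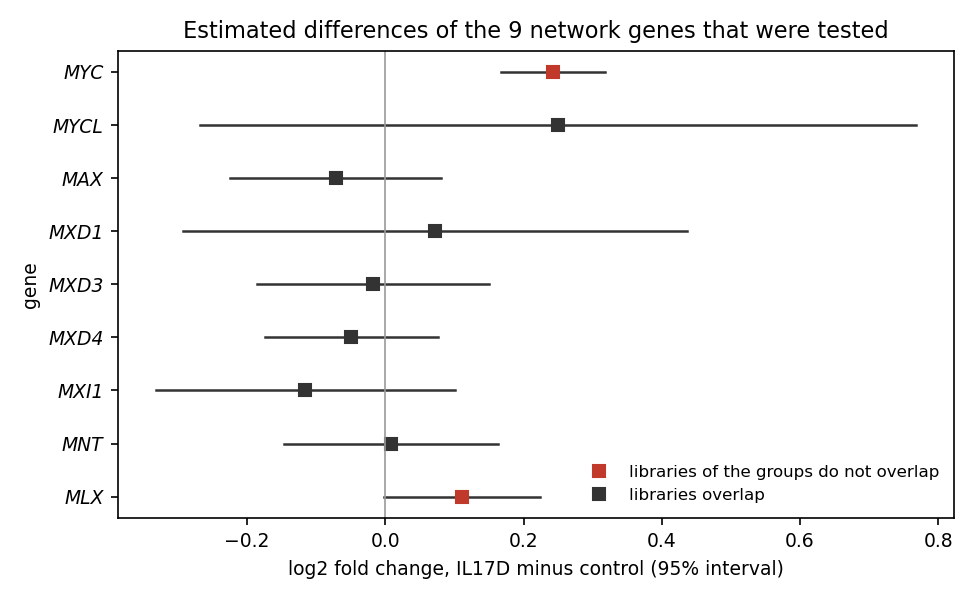
Log2 fold change of IL17D against control (x axis) for the 9 network genes that were tested (y axis), as squares with 95% intervals from the edgeR fit on 3 against 3 libraries. The interval of MYC runs from 0.17 to 0.32, those of the other 8 genes include 0, and red marks MYC and MLX, whose libraries did not overlap between the groups.

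Of the 9 members tested, 5 had a higher and 4 a lower estimate, with a median log2 fold change of 0.0077 against -0.00044 over all 15754 tested genes. By the edgeR quasi-likelihood test, Benjamini-Hochberg adjusted, 1 of the 9, MYC, had an adjusted p under 0.05, where 1.58% of all tested genes did. It was 1 of 9 called higher, where 0.673% of all genes were, and 0 of 9 were called lower, where 0.908% of all genes were. None was lower at an unadjusted p under 0.05 either, and DESeq2 and limma also called 1 member each. The libraries of the groups did not overlap for 2 of the 9, MYC and MLX, both higher, where 15.8% of all genes did not overlap. Since the rise of MYC in this contrast chose the members, nothing is read from these counts.

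Levels were compared between genes per kilobase of gene length, as CPM per kilobase over all 6 libraries (mean ± SD). MYC was the highest at 69.1 ± 6.40, above 96.8% of all tested genes. MLX followed at 14.9 ± 0.812. MAX and MXD4 came next at 6.99 ± 0.339 and 6.64 ± 0.229. Their ranges over the 6 libraries overlap, but within each library MAX lay above MXD4. The levels were 7.47 and 6.80 in control replicate 1, and 6.87 and 6.74 in control replicate 2. The ranges of MXD3 at 5.07 ± 0.278 and MNT at 4.36 ± 0.373 also overlap, near the middle of all tested genes. Within each library MXD3 lay above MNT. MXI1 stood below them at 3.18 ± 0.237. MXD1 at 0.757 ± 0.0829 and MYCL at 0.576 ± 0.165 overlap and lay above 17.4% and 13.9% of tested genes, and MYCN was at 0.0039.

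**Figure D2:**
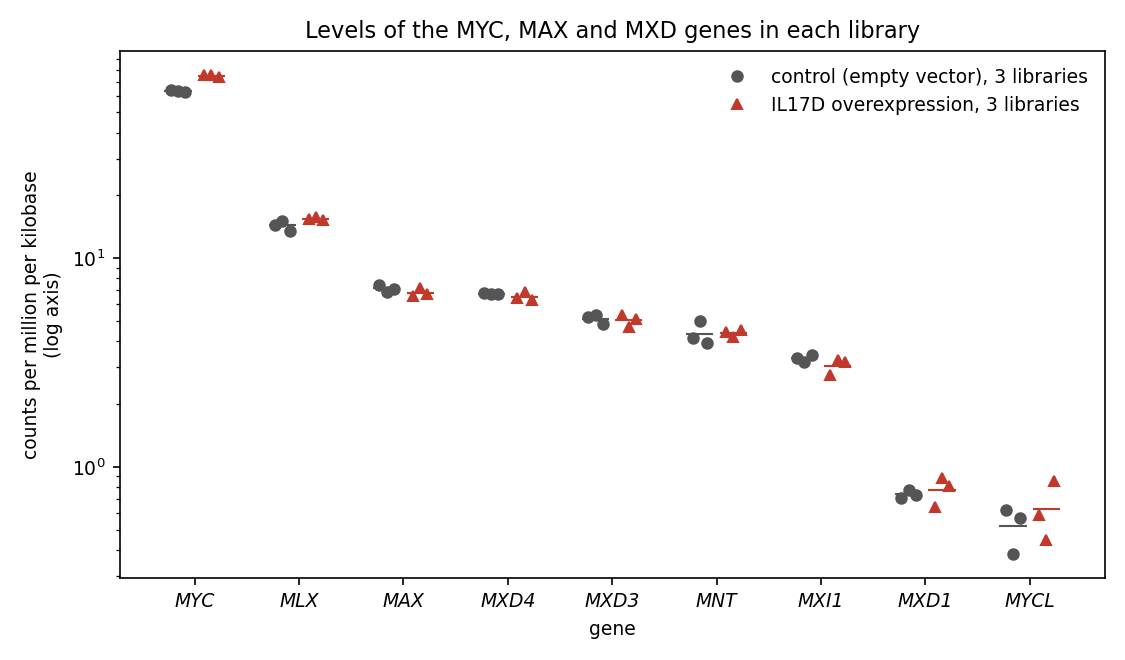
Level in each library (y axis, CPM per kilobase, log axis) of 9 network genes in the order of their mean (x axis), with horizontal lines at the group means of 3 libraries. MYC lies between 62.3 and 75.7 with its groups apart, every other gene lies at 15.8 or below, and MYCN, with 1 count in all, is not drawn.

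The order of the middle genes depended on the length used. With the longest coding transcript of each gene in place of all annotated exons, a length chosen after seeing the data, MXD4, MXD3 and MAX stood at 11.6, 11.5 and 9.81, so that MXD3 passed MAX, and MYCL at 0.896 passed MXD1 at 0.861. MYC and MLX stayed first and second at 87.7 and 24.6.

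The ratios that contain MYC were higher in the IL17D group, as follows from MYC's own difference, and the ratio of its repressive partners to MAX overlapped. The level of MYC per kilobase was 8.58, 9.25 and 8.72 times that of MAX in the control libraries and 11.5, 10.5 and 11.0 times in the IL17D libraries. The groups did not overlap, with means of 8.85 ± 0.354 and 11.0 ± 0.542 (SD, n = 3 each). Against the summed level of MXD1, MXD3, MXD4, MXI1 and MNT, MYC stood at 3.13 ± 0.0852 in the control and 3.79 ± 0.0731 in the IL17D group.

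The repressor side overlapped between the groups. The sum of MXD1, MXD3, MXD4, MXI1 and MNT was 20.3 ± 0.675 CPM per kilobase in the control and 19.8 ± 0.167 in the IL17D group, and its ratio to MAX was 2.83 ± 0.193 and 2.90 ± 0.123, with overlapping libraries. MYC held 60.0% ± 0.458 of the summed level of all members in the control and 63.7% ± 0.465 in the IL17D group. These ratios are of RNA and say nothing of protein or of which dimers formed.

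**Figure D3:**
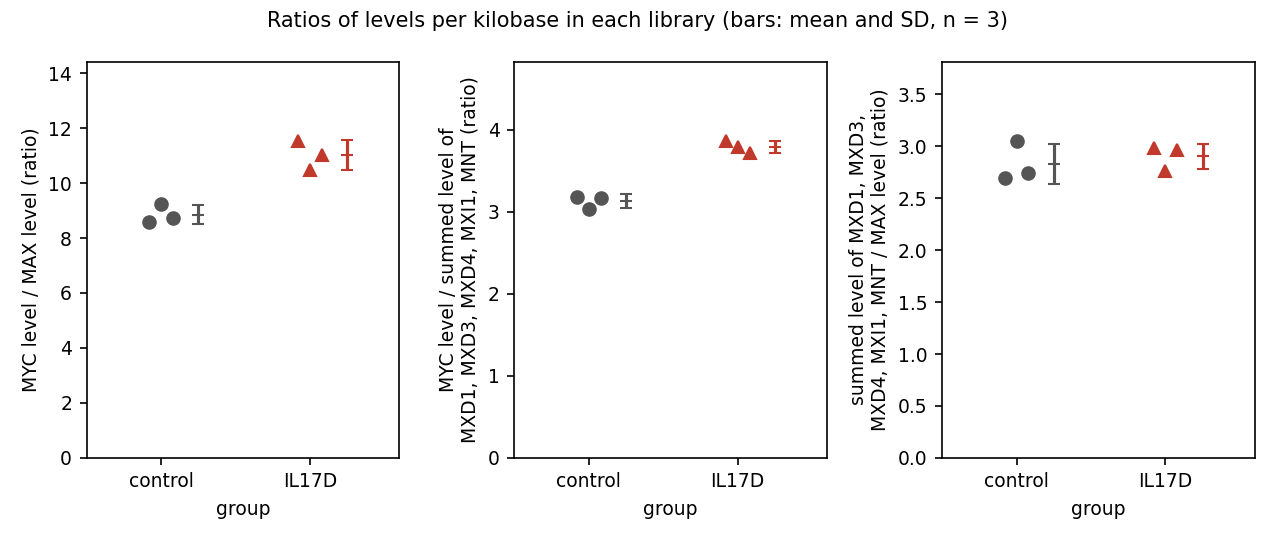
Ratios of levels per kilobase (y axes, from 0) in each control and IL17D library (x axes), with the mean and SD of 3 libraries beside the points. The 3 IL17D libraries lie above the 3 control libraries for MYC over MAX and for MYC over the 5 repressive partners, and the groups overlap in the ratio of the repressive partners to MAX.

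The promoters of the members were searched for CACGTG, the E-box that MYC-MAX and MXD-MAX dimers share, in the RefSeq windows (GRCh38.p14) from 250 bases before to 50 bases after each annotated start. The motif is its own reverse complement, so both strands were read at once. Windows were matched for 9 of the 10 members, all but MYC, and those of MXD4, MNT and MLX held the motif, while the windows of MYCL, MYCN, MAX, MXD1, MXD3 and MXI1 did not. Over all 27305 genes with a window 8.77% held it, and over the tested genes 12.6%. The pieces are shown because they hold the letters that the network's own dimers recognize within genes of the network, with the E-box in capitals and 12 bases on each side.
MXD4 (chr4:2262330-2262359, minus strand, first base of the motif 238 bases before the start): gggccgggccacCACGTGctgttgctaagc
MNT (chr17:2401236-2401265, minus strand, 193 bases before the start): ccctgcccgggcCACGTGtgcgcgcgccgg
MLX (chr17:42567038-42567067, plus strand, 50 bases before the start): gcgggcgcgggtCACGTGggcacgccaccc
All 3 pieces lie outside the annotated gene, upstream of its first base. The log2 fold changes of these 3 genes were -0.05, 0.0077 and 0.11, and those of the members without the motif ranged from -0.12 to 0.25. A match is a description of the letters, not a bound site.

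The partners, regulators and known targets of the network were counted in 9 lists of 167 genes, none of them members, of which 156 were tested. The edgeR quasi-likelihood test, Benjamini-Hochberg adjusted, called 6 of the 156, or 3.85%, where 1.58% of all tested genes were called. Of these, 4 were higher, USP36, LDHA, NDRG1 and KLF10, and 2 were lower, SLC2A1 and ITGB1. The median log2 fold change of the 156 genes was 0.03, with 106 higher and 50 lower estimates. The lists were written with earlier results of these data known, so no enrichment is read from these counts. Adjusted p-values of listed genes below are given as a description.

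Among proteins that pair with members, the 3 relatives MGA, MLXIP and MLXIPL had log2 fold changes of -0.02, -0.06 and -0.06, and 0 of the 3 were called. MLXIP, the partner of MLX also known as MondoA, was at 105.5 ± 1.54 and 101.3 ± 1.17 CPM (SD, n = 3 each). Its groups did not overlap, with an adjusted p of 0.69 by edgeR's quasi-likelihood test. MGA, the MAX partner of a polycomb complex, was at 60.0 ± 3.16 and 59.0 ± 3.17 CPM (SD, n = 3 each).

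Of 14 corepressor genes, 0 were called, and the median log2 fold change was -0.03. RBBP7, an abundant histone-binding subunit of the SIN3 complex, was at 212, 211 and 214 CPM in the control libraries and 210, 207 and 203 CPM in the IL17D libraries, with a log2 fold change of -0.04. Of 18 coactivator genes, 0 were called. HCFC1, a chromatin cofactor that MYC binds, and TRRAP, the scaffold of MYC's histone acetyltransferase complexes, had log2 fold changes of 0.09 each (SE 0.04, adjusted p = 0.34 and 0.38 by edgeR's quasi-likelihood test), and were the 2 coactivators with an unadjusted p under 0.05. Of 9 subunits of the polycomb complex that contains MAX and MGA, 0 were called, with CBX3 at 0.04 and TFDP1 at -0.01 on the log2 scale. At an unadjusted p under 0.05, 0 relatives, 0 corepressors and 0 polycomb subunits remained, and DESeq2 and limma called 0 genes in each of these 4 lists.

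Of 24 tested genes for turnover of MYC protein, 1 was called. USP36, a nucleolar deubiquitinase that stabilizes MYC, rose from 108, 106 and 111 CPM in the control libraries to 121, 120 and 125 CPM in the IL17D libraries. The groups did not overlap, and the log2 fold change was 0.17 (SE 0.04, adjusted p = 0.043, edgeR quasi-likelihood test, Benjamini-Hochberg adjusted). The call was lost in 6 of 12 alternatives, with no filter on low counts and without any one library other than control replicate 3, with adjusted p up to 0.23. The ubiquitin ligase gene HUWE1 and SET, an inhibitor of the phosphatase PP2A, were the most abundant, at 602 and 450 CPM in the control, with log2 fold changes of -0.04 and 0.00026.

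Of 16 genes for MYC mRNA stability and transcription of its locus, PVT1 included, 0 were called, 1 had an unadjusted p under 0.05, and DESeq2 and limma called 0. HNRNPK and HNRNPD, RNA-binding proteins, had log2 fold changes of 0.01 and 0.02.

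Among 52 tested genes that MYC is known to activate, 38 had higher and 14 lower estimates with a median log2 fold change of 0.03, and 1 was called in each direction. LDHA, the lactate dehydrogenase subunit, rose from 2394, 2329 and 2388 CPM in the control libraries to 2538, 2555 and 2518 CPM in the IL17D libraries. The groups did not overlap, with a log2 fold change of 0.10 (SE 0.02, adjusted p = 0.025, edgeR quasi-likelihood test, Benjamini-Hochberg adjusted), though the call was lost in 5 of 12 alternatives, the replicate block and the fits without control replicate 2 or any of the IL17D replicates, with adjusted p up to 0.13. SLC2A1, the glucose transporter GLUT1, went the other way, from 236, 229 and 221 CPM to 206, 192 and 194 CPM. It fell by 0.21 on the log2 scale (SE 0.04, adjusted p = 0.0013 by the same edgeR test), and its groups did not overlap. SLC7A5, a large neutral amino acid transporter, and PKM, pyruvate kinase, were the most abundant, with log2 fold changes of 0.03 and -0.03. At an unadjusted p under 0.05, 14 of the 52 were higher and 4 lower, where 11.6% of all tested genes were at that p in either direction. The same counts were 4 higher and 1 lower of the 14 repressed targets and 2 higher and 1 lower of the 6 MLX targets described next, and whether the lists differ was not tested.

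Among 14 tested genes that MYC is known to repress, 12 had higher estimates, and 1 was called in each direction. NDRG1, a stress-response gene, rose from 67.5, 59.3 and 59.8 CPM in the control libraries to 74.5, 76.0 and 75.3 CPM in the IL17D libraries. Its groups did not overlap, and its log2 fold change of 0.27 (SE 0.06, adjusted p = 0.0036, edgeR quasi-likelihood test, Benjamini-Hochberg adjusted) was of the size of MYC's. ITGB1, an integrin subunit, fell by 0.11 on the log2 scale, from 2190 ± 38.0 to 2036 ± 24.1 CPM (SD, n = 3 each; adjusted p = 0.018 by the same edgeR test), and the call was lost in 3 of 12 alternatives, without control replicate 3, IL17D replicate 1 or IL17D replicate 3, with adjusted p up to 0.16. FTH1, ferritin heavy chain, and CLU, the chaperone clusterin, were the most abundant others, with log2 fold changes of -0.05 and 0.09. CLU had an adjusted p of 0.077 with edgeR and passed with DESeq2 and limma, which called 3 genes of this list each.

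Among 6 tested targets of MLX dimers, 1 was called. KLF10, a transcription factor gene also known for its early induction by TGF-beta, rose from 84.4, 80.1 and 79.8 CPM in the control libraries to 92.4, 93.4 and 105 CPM in the IL17D libraries. The groups did not overlap, with IL17D replicate 3 the highest, and the log2 fold change was 0.25 (SE 0.05, adjusted p = 0.0047, edgeR quasi-likelihood test, Benjamini-Hochberg adjusted). Without IL17D replicate 3 it was 0.19 with an adjusted p of 0.12. The lipid synthesis genes FASN and ACACA were the most abundant, with log2 fold changes of 0.01 and -0.12 (ACACA adjusted p = 0.17 by the same edgeR test).

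**Figure D4:**
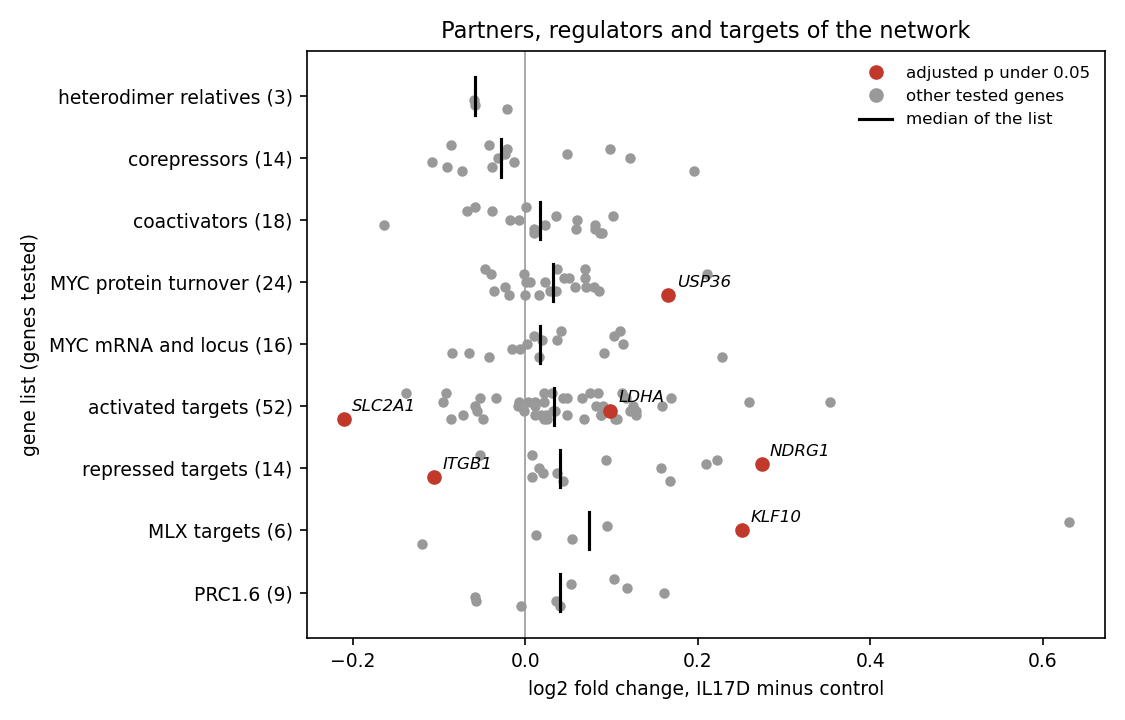
Log2 fold change of IL17D against control (x axis) for each of the 156 tested genes in 9 lists of partners, regulators and targets (y axis, number tested in parentheses), with black lines at list medians. Red marks the 6 genes with an adjusted p under 0.05, 4 to the right of 0 and 2 to the left, and all 9 list medians lie between -0.06 and 0.07.

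CACGTG was found in the promoter windows of 16 of the 44 activated targets with a window, 36.4%, against 12.6% of all tested genes with one. It was also found for 3 of 12 repressed targets (25%) and 3 of 6 MLX targets (50%). In the remaining lists the share ran from 0 to 18.2%, and whether the lists differ was not tested. Windows were matched for 4 of the 6 called genes, all but NDRG1 and KLF10, and those of USP36 and LDHA held it while those of SLC2A1 and ITGB1 did not. The pieces around the E-box are shown for the called genes that hold it, with the motif in capitals and 12 bases on each side.
USP36 (chr17:78840824-78840853, minus strand, first base of the motif 27 bases before the RefSeq start, in an exon of a longer GENCODE transcript): gcgtcgcggtgaCACGTGtgtgaggcgccg
LDHA, upstream motif (chr11:18394366-18394395, plus strand, 185 bases before the RefSeq start, partly in an exon): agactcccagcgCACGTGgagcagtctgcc
LDHA, downstream motif (chr11:18394464-18394493, plus strand, 87 bases before the RefSeq start, in an exon): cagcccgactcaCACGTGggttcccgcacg

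The genes most like MYC over the 6 libraries were listed by Pearson's r of log2 CPM, among 9741 genes with a mean of at least 10 CPM. They were NFKB2 (r = 0.994), a subunit of noncanonical NF-kB, ADM (r = 0.993), the peptide hormone adrenomedullin, ITPRID2 (r = 0.991), POLR2A (r = 0.989), the largest subunit of RNA polymerase II, and CD55 (r = 0.989), an inhibitor of complement. Each of the 5 was higher in all IL17D than in all control libraries, so r rests largely on the difference between the groups, and 216 genes had r above 0.9. NFKB2 rose from 128, 127 and 128 CPM to 150.5, 148 and 146 CPM, with IL17D replicate 3 the lowest of its group, as it was for MYC. The size of the difference was not part of the measure, since POLR2A, at a log2 fold change of 0.09, stood beside ITPRID2 at 0.26. The points share the library, its depth and its group, and no p is given.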

How the data were processed

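Gene counts of 6 A549 libraries, 3 control and 3 IL17D, were analyzed. The count values were deposited by the authors as raw counts per gene and library, and the submitters' processing notes name Bowtie2 and build hg38. The counting tool and its strand setting are not given in the sources used here. All 58735 rows matched GENCODE 29 in start and end. The gene length deposited by the authors equals the union of annotated exons for all 10 members.

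Groups came from the sample titles. The members and lists were chosen with earlier results of these data known. Genes passing edgeR's default filter (15754) were fitted with edgeR 4.0.16 (R 4.3.3), TMM scaling and the quasi-likelihood test for the 2 groups, with Benjamini-Hochberg adjustment over all tested genes and 0.05 as threshold. Levels were CPM, or CPM per kilobase of the deposited length. Named genes were all members, IL17D, PVT1, the called genes of each list with its 2 most abundant others, the 5 genes most correlated with MYC, and marker genes. One gene that this rule names is not reported here. FAM83A was named after its values were seen. DESeq2 1.42.0, limma 3.58.1, other filters and scalings, and leaving out each library were alternatives. Scripts were tested on simulated data. Depths of 14319398 to 16521021 counts set the precision, and limits for a count of 0 cover counting error only. Replicate pairs within a group differed by more than counting noise (chi-square per degree of freedom 2.20 to 3.38), so all libraries were kept as separate. This does not show that they were separate cultures. Promoter windows came from RefSeq (GRCh38.p14), and exon overlaps from GENCODE 29.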

Additional observations from a re-analysis of the deposited data

How the results depend on the processing

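MYC stayed higher and past the threshold in all 12 alternatives (log2 fold change 0.23 to 0.25), and 1 member was called in each. These fits reuse the libraries in which MYC's rise chose the members. They describe the dependence on processing and are no further test of that rise. The estimates of MNT, MXD3, MXD1 and MYCL changed sign in 4, 2, 1 and 1 of the 12, and those of MAX, MXD4, MXI1 and MLX in 0. IL17D kept its direction and call in all 12. Leaving out 1 library each, the number of list genes called higher ran from 1 to 6 and the number called lower from 1 to 2, against 4 and 2 with all libraries. It was 2 higher without control replicate 2, IL17D replicate 1 or IL17D replicate 2, and 1 higher without IL17D replicate 3. It was 1 lower without control replicate 3, IL17D replicate 1 or IL17D replicate 3. Fewer samples entered these fits, and the cause of each loss was not tested further. SLC2A1 and NDRG1 were called in all 12 alternatives. Without division by length, 4 members changed their place in the order of levels, and with the longest coding transcript, an alternative chosen after seeing the data, 5 did. Both follow from the lengths used.

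With the replicate block, MYC had a log2 fold change of 0.24, 272 genes were called against 249 without it, and LDHA lost its call (adjusted p = 0.062, edgeR). Deviations of libraries with the same number correlated at 0.010, -0.012 and -0.015, against -0.041 to 0.054 for different numbers. These values show no pairing by number, but with 3 libraries per group they cannot exclude one. Depth limits MYCL, MXD1 and MYCN, with at most 92 counts in any library.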

Other observations

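After the values were seen, the tested genes were also summarized by chromosome. Chromosome 8, which carries MYC, had the highest median log2 fold change of the 23 chromosomes with at least 100 tested genes, 0.035 over 566 genes, and 62.2% of its genes had a higher estimate. Chromosome 20 followed with 0.034 over 436 genes and 61.5%. The lowest median was -0.02, on chromosome 22. On chromosome 8, 10 genes were called higher and 3 lower by the edgeR quasi-likelihood test, Benjamini-Hochberg adjusted. Over all tested genes, 0.673% were called higher and 0.908% lower. Those called higher on chromosome 8 include MYC itself, NDRG1, KLF10 and FAM83A, so nothing is read from this count. The list genes NDRG1, KLF10, CLU, BOP1, RRS1 and PVT1 lie on it, and each had a higher estimate, from 0.09 for CLU to 0.27 for NDRG1.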
